A study of Homo sapiens with 4 samples.

Results

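The multidrug exporters of the ATP-binding cassette (ABC) family and the major vault protein were examined in UM-UC-3 cells, a human line established from a urothelial carcinoma. The genes were chosen by symbol, 9 in all, and 7 of them had a row among the 13743 genes of the deposited table: ABCB1, ABCC1, ABCC3, ABCC4, ABCC5, ABCC10 and MVP. ABCC2 and ABCG2 were not analysed here. Cap analysis of gene expression (CAGE), which sequences the 5′ ends of capped RNA, gave 2 wild type samples and 2 samples of a subline made resistant to cisplatin (CDDP). The resistant cells were kept in medium with 5 µM cisplatin. The sources used here give neither the medium of the wild type cells nor whether the subline is a clone. The acquired state and the presence of the drug cannot be told apart. No label ties the replicates to separate cultures, so the p-values rest on the spread between samples that may be technical repeats.

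ABC exporters are membrane pumps that use ATP to move substrates out of the cell. ABCB1 (P-glycoprotein) carries bulky hydrophobic drugs such as anthracyclines, vinca alkaloids and taxanes, and cisplatin is not among its typical substrates. The ABCC exporters (multidrug resistance-associated proteins) carry organic anions, many of them conjugated to glutathione, glucuronate or sulfate. MVP, once called lung resistance-related protein, is no pump: it forms the shell of the vault, a large ribonucleoprotein particle of the cytoplasm.

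The samples held between 17800730 and 21189219 reads, as recovered from the smallest steps of the CPM values (counts per 1000000 reads of the listed genes). Of 15 urothelial and epithelial markers 4 were in the table, the keratins KRT7, KRT8 and KRT18 and the basal factor TP63, summing to 408 and 403 CPM in the wild type samples against 144 and 139 CPM in the resistant ones. KRT18 and KRT8 carried the sum and fell (log2 fold changes of -1.80 and -1.06; limma, adjusted p = 7.22e-07 and 1.72e-05), whereas KRT7 rose from 5.32 and 5.56 CPM to 10.05 and 10.0 CPM (adjusted p = 0.000734). TP63 was too low to be tested, at 0.49 and 0.99 CPM in wild type and listed at 0 in both resistant samples. Of 10 leukocyte markers 3 were in the table, summing to 148 and 124 CPM against 102 and 94.7 CPM. CD68 fell (log2 fold change -1.05; limma, adjusted p = 0.000318), and SRGN did not pass (log2 fold change -0.08, adjusted p = 0.430). Of 7 fibroblast markers 3 were in the table, summing to 0.87 and 0.94 CPM against 2.21 and 2.58 CPM. ACTA2 carried that sum and rose (log2 fold change 0.55, limma adjusted p = 0.0177), and COL1A1 and COL3A1 were too low to be tested. The part of these markers in the results below was not tested. Fewer cells with a transcript and less of it per cell cannot be told apart in bulk RNA.

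Of the 7 genes, 3 were higher in resistant cells (ABCB1, ABCC1 and ABCC3), 0 were lower and 4 did not pass the test (limma, adjusted p under 0.05 over all tested genes). Among all 12587 tested genes, those with a mean of at least 1 CPM, 55.2% were called, 33.5% as higher and 21.6% as lower, so the count alone does not set the exporters apart. A split of 4221 higher to 2724 lower genes became 3518 to 3415 under quantile normalization. With a log2 fold change of at least 1, 2 of the 7 genes were higher, ABCB1 and ABCC3, against 4.14% of all tested genes, and 0 were lower by as much, against 3.58%. ABCB1 entered the test only through its level in resistant cells. The genes were also chosen with earlier results of these data known, so this contrast does not set the exporters apart either. The groups did not overlap in 5 of the 7 genes, against 78.5% of all tested genes. The median log2 fold change was 0.08 over the 7 genes and 0.09 over all tested genes. CAGE reads start at the cap, so the values are not scaled to transcript length. The summed level of the 6 exporters was 51.5 ± 1.52 CPM for wild type and 62.0 ± 1.52 CPM for resistant cells (SD, n = 2 each), a ratio of 1.20.

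**Figure D1:**
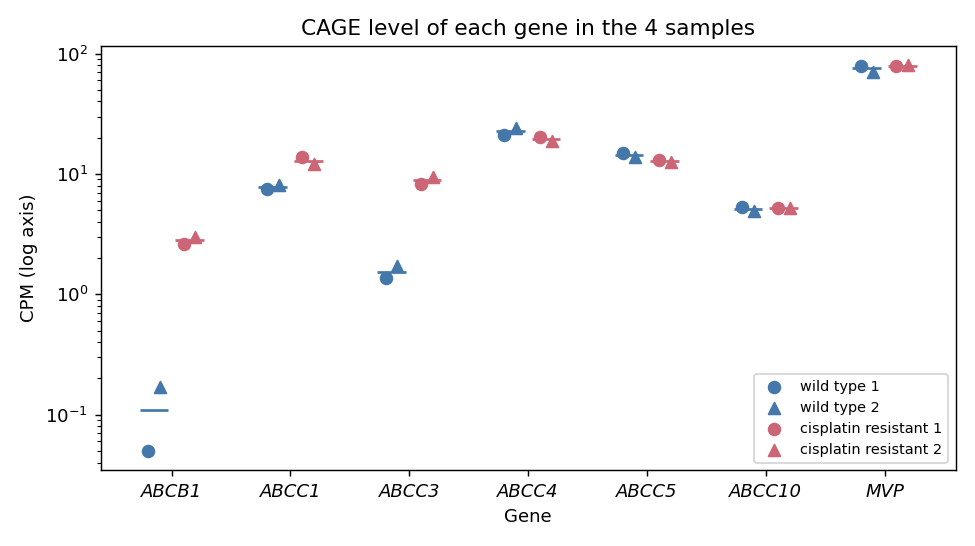
CPM of each gene (log axis) in the 4 samples; circles are replicate 1, triangles replicate 2, and short lines the group means. ABCB1, ABCC1 and ABCC3 read higher in both resistant samples than in both wild type samples, while for ABCC10 and MVP the groups overlap.

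ABCB1 (ENSG00000085563.15) went from almost no reads to a low but clear level. It read 0.05 and 0.17 CPM in the wild type samples, which were 1 and 3 reads, and 2.64 and 2.98 CPM in the resistant samples, which were 56 and 53 reads. Wild type replicate 1 lay below the floor of 3 reads (0.164 CPM in that sample) and wild type replicate 2 lay at it (0.165 CPM). Both resistant samples lay far above it. The ratio of summed reads was 25.4, with an exact (Clopper-Pearson) 95% interval of 9.66 to 95.03 that covers counting error only. Without wild type replicate 1 it was 16.9 (5.64 to 83.3), and without wild type replicate 2 it was 51.0 (8.96 to 2032). The test scale, log2(CPM + 1), compresses differences at low levels; on it the fold change was 1.78 (standard error 0.16; limma, adjusted p = 5.13e-05). With a pseudocount of 0.1 CPM it was 3.85.

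GENCODE 29 lists 11 transcript start positions for ABCB1, and the deposited row does not say which of them the reads came from. It also places RUNDC3B and HNRNPA1P9 over ABCB1 on the opposite strand, and neither has a row in the table. Strand use in counting is not given, so their reads may not be separated from those of ABCB1. RefSeq (GRCh38.p14) gives a pair of promoter windows on the minus strand of chromosome 7, an upstream and a downstream one. The 150 bases before each start are shown because the row of ABCB1 gained reads in resistant cells. Capitals mark matches to 5 motifs searched on both strands: CCAAT, the GC box GGGCGG, the TATA box TATAAA, the antioxidant response element TGACNNNGC and the hypoxia response element ACGTG. No motifs overlapped in the windows shown.
ABCB1 upstream start, chr7:87713296-87713445: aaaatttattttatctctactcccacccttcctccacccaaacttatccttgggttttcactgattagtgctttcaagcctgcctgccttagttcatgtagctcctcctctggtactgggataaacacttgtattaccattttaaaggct
ABCB1 downstream start, chr7:87600885-87601034: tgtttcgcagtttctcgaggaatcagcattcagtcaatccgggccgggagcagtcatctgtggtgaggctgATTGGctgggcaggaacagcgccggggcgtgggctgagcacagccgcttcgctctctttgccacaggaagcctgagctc
The downstream window held 1 match, CCAAT on the opposite strand, 79 bases before the start, and the upstream window held 0. CCAAT was found in 23.5% of the 35116 RefSeq windows of the same length. The upstream window had 41.3% G and C and the downstream window 60.7%, against a median of 60% over all windows. A match describes letters only, and the other motifs being missing from these windows says nothing of their factors.

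ABCC3 (ENSG00000108846.16) encodes multidrug resistance-associated protein 3, which exports glucuronides and bile salts across the basolateral membrane of epithelial cells. The wild type samples read 1.37 and 1.71 CPM and the resistant samples 8.26 and 9.44 CPM. Both resistant samples were several times above both wild type samples. The ratio of summed reads, 343 against 56, was 5.72 (exact 95% interval 4.30 to 7.73). It lay between 5.15 and 6.42 with any 1 sample left out. The log2 fold change was 1.96 (standard error 0.14; limma, adjusted p = 2.02e-05), the highest among the 7 genes on that scale.

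ABCC1 (ENSG00000103222.19) encodes multidrug resistance-associated protein 1, an exporter of glutathione conjugates, leukotriene C4 and many drugs. It stood at 7.57 and 8.15 CPM in wild type samples and at 13.78 and 12.02 CPM in the resistant samples, with no overlap. The ratio of mean CPM was 1.64 and the log2 fold change 0.65 (standard error 0.12; limma, adjusted p = 0.00215). The exact 95% interval of the ratio of summed reads was 1.43 to 1.92, for counting error only, and its upper end lay below the lower end for ABCC3.

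ABCC4 (ENSG00000125257.16) and ABCC5 (ENSG00000114770.17) encode exporters of cyclic nucleotides and nucleotide analogues. ABCC4 stood at 21.27 and 23.95 CPM in wild type samples and at 20.15 and 18.71 CPM in the resistant samples. Its resistant samples lay below its wild type samples, but the log2 fold change of -0.21, with a 95% interval of -0.44 to 0.02, did not pass (limma, adjusted p = 0.111). It passed as lower under median-ratio scaling (adjusted p = 0.0362), trimmed-mean scaling (0.0394), quantile normalization (0.0237) and without wild type replicate 1 (0.0481), and over all alternatives its adjusted p reached 0.417. For ABCC5 the wild type samples read 14.86 and 13.71 CPM and the resistant samples 13.03 and 12.58 CPM. The groups did not overlap, and the log2 fold change of -0.15, with a 95% interval of -0.38 to 0.09, did not pass (limma, adjusted p = 0.262). It passed as lower under quantile normalization (adjusted p = 0.0468), and its adjusted p reached 0.545 over the alternatives.

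The windows of ABCC4 and ABCC5 are given beside those of ABCB1 as examples of exporters that did not pass the test. No window was matched for ABCC1 or ABCC3, so ABCB1 is the only raised exporter with windows. Both come from RefSeq (GRCh38.p14), on the minus strand, with the same motifs in capitals.
ABCC4, chr13:95301452-95301601: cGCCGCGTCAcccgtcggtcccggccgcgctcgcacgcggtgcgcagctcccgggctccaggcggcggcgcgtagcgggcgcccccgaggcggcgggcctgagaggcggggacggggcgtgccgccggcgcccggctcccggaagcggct
ABCC5, chr3:184017885-184018034: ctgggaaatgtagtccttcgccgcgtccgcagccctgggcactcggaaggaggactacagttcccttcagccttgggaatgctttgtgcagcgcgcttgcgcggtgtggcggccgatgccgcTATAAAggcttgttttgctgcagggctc
ABCC4 held 1 match to the antioxidant response element at the far end of the window, and 84.7% of its bases were G or C. ABCC5 held 1 TATA box, 28 bases before the start. The antioxidant response element was found in 7.29% of all windows and the TATA box in 6.71%. Of the other genes that did not pass, ABCC10 held 3 GC boxes in one window and a TATA box and an antioxidant response element in another, and the 3 windows of MVP held 0 matches.

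ABCC10 (ENSG00000124574.15), whose product exports taxanes among other drugs, stood at 5.32 and 4.90 CPM in wild type samples and at 5.19 and 5.17 CPM in the resistant samples. The groups overlapped, and the log2 fold change was 0.02 with a 95% interval of -0.27 to 0.30 (limma, adjusted p = 0.917). It overlaps DLK2 on the opposite strand in the annotation; DLK2 itself read between 3.09 and 3.89 CPM. The use of strand in counting is not given, so reads of both may not be separated. The same holds for ABCC1 and ABCC5, which overlap RPL17P40 and ABCC5-AS1 on the opposite strand, genes with no row in the table.

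For MVP (ENSG00000013364.19) the wild type samples read 79.45 and 70.93 CPM and the resistant samples 79.05 and 80.05 CPM. Wild type replicate 1 lay between the resistant samples, and wild type replicate 2 was the lowest. The log2 fold change was 0.08 with a 95% interval of -0.09 to 0.26 (limma, adjusted p = 0.392). Of the other vault genes, PARP4, the vault poly(ADP-ribose) polymerase, rose 1.59 times (57.2 ± 0.877 CPM in wild type, 91.0 ± 1.12 CPM in resistant cells, SD, n = 2; limma, adjusted p = 0.000108). TEP1, a vault protein that also binds telomerase RNA, read 3.41 ± 0.304 and 3.43 ± 0.163 CPM (SD, n = 2) and did not pass (limma, adjusted p = 0.966). MVP overlaps the rows AC009133.1 on the opposite strand and AC120114.4 on the same strand, so their reads may not be separated either.

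**Figure D2:**
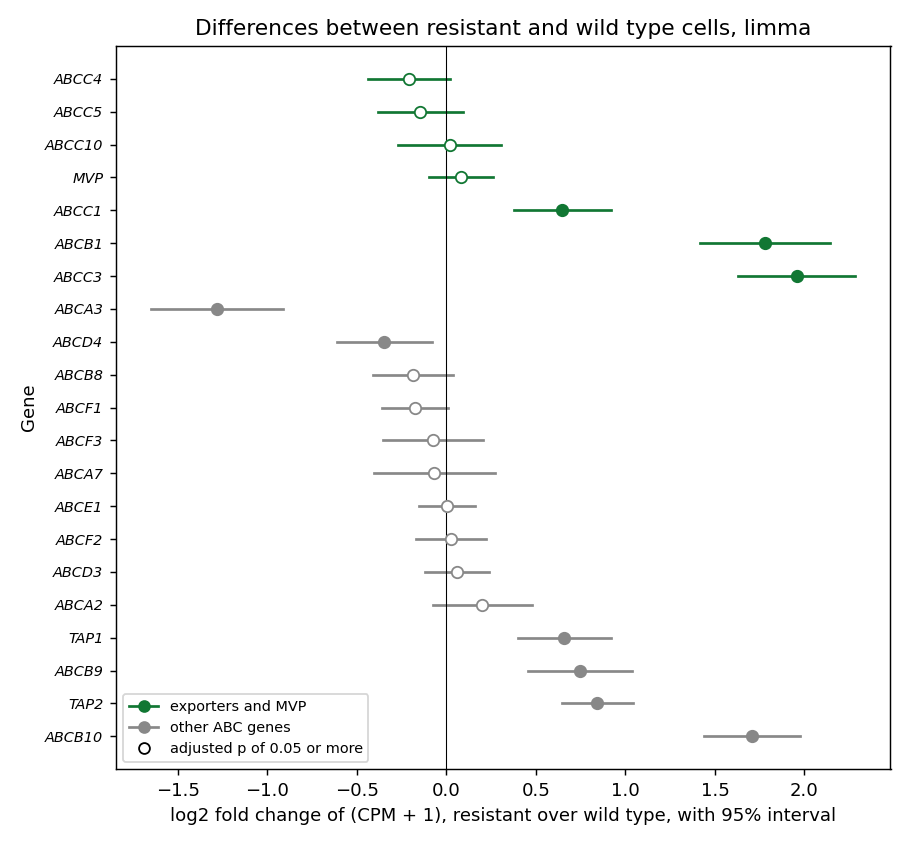
Log2 fold change of (CPM + 1), resistant over wild type, with limma's 95% interval, for the exporters and MVP (green) and the other ABC genes tested (grey); open circles did not pass the test. ABCC3, ABCB1 and ABCC1 lie to the right of 0, and among the other ABC genes 4 passed as higher and 2 as lower.

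Most other ABC genes in the table did not pass the test. Of 38 ABC genes outside the multidrug exporters, 14 were in the table and tested. Among these 14, 4 were higher and 2 lower in resistant cells and 8 did not pass, against 33.5% higher and 21.6% lower among all tested genes. The median log2 fold change was 0.02 against 0.09. ABCB10, a transporter of the mitochondrial inner membrane needed for heme synthesis, rose 3.77 times, from 4.11 and 4.68 CPM to 16.66 and 16.46 CPM (limma, adjusted p = 1.56e-05). TAP2, which with TAP1 carries peptides into the endoplasmic reticulum for HLA class I, rose 1.83 times (adjusted p = 0.000105); its row holds the same values as that of AL669918.1. ABCB9, a peptide transporter of lysosomes, rose 1.80 times (adjusted p = 0.00146), and TAP1 rose 1.63 times. ABCA3, known for loading surfactant lipids into lamellar bodies in the lung, was 2.72 times higher in wild type, at 15.46 and 11.95 CPM against 5.71 and 4.38 CPM (limma, adjusted p = 0.000298). The other gene called lower was ABCD4, a lysosomal transporter of cobalamin handling, 1.30 times higher in wild type (limma, adjusted p = 0.0323), a call that ended in 4 of 14 alternatives. ABCE1 and the ABCF genes have no membrane part and act in translation. ABCE1 read 82.9 ± 0.0990 and 83.2 ± 3.42 CPM (SD, n = 2), with an adjusted p of 0.960.

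Genes that supply the ABCC exporters with glutathione and its conjugates were called in both directions. Of 13 tested members 7 were higher, 4 lower and 2 did not pass, with a median log2 fold change of 0.29 against 0.09 over all tested genes, where 33.5% were higher and 21.6% lower. GCLC and GCLM, the subunits of the enzyme that limits glutathione synthesis, rose 2.82 and 2.05 times (limma, adjusted p = 2.12e-05 and 1.21e-05). GSR, which regenerates reduced glutathione, rose 1.80 times, and GSTP1, a glutathione transferase, rose 1.42 times (415 ± 13.8 against 589.8 ± 2.95 CPM, SD, n = 2; limma, adjusted p = 0.000323). The transferase GSTM4 was 2.25 times higher in wild type (limma, adjusted p = 6.00e-05), and GSS, which completes glutathione, was 1.47 times higher. GSTM genes are close paralogs, so reads may be divided among them.

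Of exporters outside the ABC family, ATP7A, the copper exporter, was 2.03 times higher in wild type (limma, adjusted p = 0.00168), and its row holds the same values as that of AL356235.1. SLC47A1, an exporter of organic cations, read 6.16 ± 0.601 and 6.29 ± 0.311 CPM (SD, n = 2), with an adjusted p of 0.863. Of 6 tested genes that anchor membrane proteins to the cell cortex, 3 were higher and 2 lower, against 33.5% and 21.6% of all tested genes. Moesin (MSN), which links membrane proteins to actin, fell by 1.76 on the log2 scale, from 266.37 and 249.57 CPM to 77.3 and 73.7 CPM (limma, adjusted p = 1.18e-06). Its relative radixin (RDX) rose 1.35 times and the scaffold SLC9A3R2 1.75 times, and CAV1, the caveolin of membrane pits, 1.18 times, a call that ended in 5 of 14 alternatives. Ezrin (EZR) passed as lower at an adjusted p of 0.0493, a call that ended in 6 of 14 alternatives.

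Regulators linked to these promoters were listed as well. Of 19 tested, 6 were higher, 3 lower and 10 did not pass, with a median log2 fold change of 0.08. These counts are near the background of 33.5% higher and 21.6% lower and say nothing particular of regulators. EGR1, an immediate early factor that binds GC-rich promoters, rose 5.36 times (limma, adjusted p = 8.75e-06). RXRA, the retinoid receptor that pairs with the xenobiotic receptors, rose 1.69 times (adjusted p = 0.000983). NFE2L2 (NRF2), the regulator of antioxidant genes, rose 1.42 times, from 36.57 and 30.51 CPM to 50.12 and 45.17 CPM (limma, adjusted p = 0.00407), and KEAP1, its inhibitor, rose 1.45 times (adjusted p = 0.00576). The calls of NFE2L2 and KEAP1 each ended in 1 of 14 alternatives. ARNT, the partner of HIF1A and of the aryl hydrocarbon receptor, was 1.64 times higher in wild type (adjusted p = 0.000498). HIF1A, the oxygen-regulated factor, was 1.32 times higher in wild type, at 128 ± 1.40 CPM against 97.2 ± 1.54 CPM (SD, n = 2; limma, adjusted p = 0.00116).

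**Figure D3:**
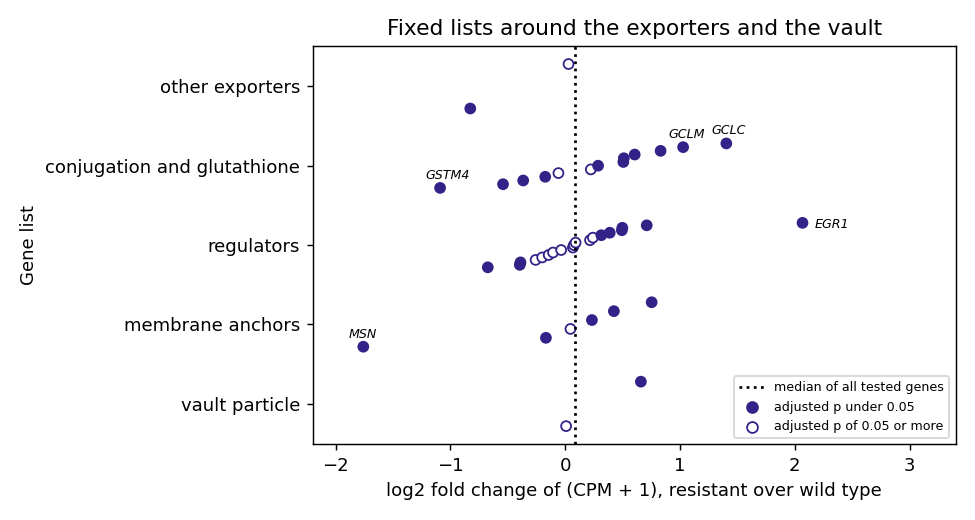
Log2 fold change of (CPM + 1), resistant over wild type, for each tested gene of 5 lists; filled points passed the test and the dotted line is the median of all tested genes, 0.09. The lists of anchors, regulators and conjugation genes hold filled points on both sides of 0, and in the vault list PARP4 was higher while TEP1 lay at 0.01; genes at an absolute value of at least 1 are named.

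The genes around the 3 raised exporters were compared with them. For each exporter the 5 nearest listed genes on either side were taken in the order of the annotation, which reached as far as 2441 kb. Among all tested genes 33.5% were higher and 21.6% lower. Around ABCC1, 7 of 8 tested neighbours were higher and 0 lower, with a median log2 fold change of 0.70, against 0.65 for ABCC1 itself. CEP20, a centriole gene beside it, rose 1.71 times (limma, adjusted p = 0.000101), NDE1, a dynein regulator, 1.43 times, and BMERB1 did not pass. The call of MARF1 ended in 5 of 14 alternatives, that of NDE1 in 2 of 14 and that of XYLT1 in 2 of 13. NOMO2 and NOMO3, which rose 2.10 and 3.44 times, are near-identical copies whose reads may be divided between them. MIR3180-4, 795 kb away and higher by 1.15 on the log2 scale, holds the same values as the row of PKD1P6. NOMO3 read 0.71 and 0.88 CPM in wild type and entered the test only through its level in resistant cells, 2.55 and 2.92 CPM. Around ABCB1, 7 of 10 neighbours were higher and 1 lower, but CROT, AC005045.1 and AC005045.2 hold the same values, so 5 of 8 distinct rows were higher, with a median of 0.47. The call of CROT ended in 3 of 14 alternatives, that of Y_RNA in 2 of 14 and that of ADAM22 in 1 of 13. DBF4, an activator of replication origins, rose 1.82 times (limma, adjusted p = 3.76e-05) and SLC25A40, a mitochondrial glutathione carrier, 1.58 times, both with 95% intervals that end below that of ABCB1. Around ABCC3, 5 of 10 neighbours were higher and 0 lower, with a median of 0.28; on chromosome 17 as a whole 46.3% of tested genes were higher. The call of RSAD1 ended in 2 of 14 alternatives and that of EME1 in 1 of 14. ANKRD40, its nearest neighbour on one side, rose 1.66 times (limma, adjusted p = 0.00152), and SPATA20, on the other side, read 21.3 ± 0.163 and 20.6 ± 0.70 CPM (SD, n = 2; adjusted p = 0.703).

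The share of called genes also varied by chromosome. ABCB1 lies on chromosome 7, where 50.2% of 621 tested genes were called higher and 10.8% lower, with a median log2 fold change of 0.28. Chromosome 16, which carries ABCC1 and MVP, had 47.2% higher and a median of 0.25, and chromosome 17, which carries ABCC3, 46.3% and 0.24. By that median these chromosomes ranked 21, 20 and 19 of 23, counted from the lowest. ABCC4 on chromosome 13, ABCC5 on chromosome 3 and ABCC10 on chromosome 6 lay among genes with medians of 0.06, 0.16 and 0.16. MVP, at 0.08, lay below the median of its chromosome, and so did ABCC4 at -0.21, ABCC5 at -0.15 and ABCC10 at 0.02. The part of the surrounding region in the level of each exporter was not tested.

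**Figure D4:**
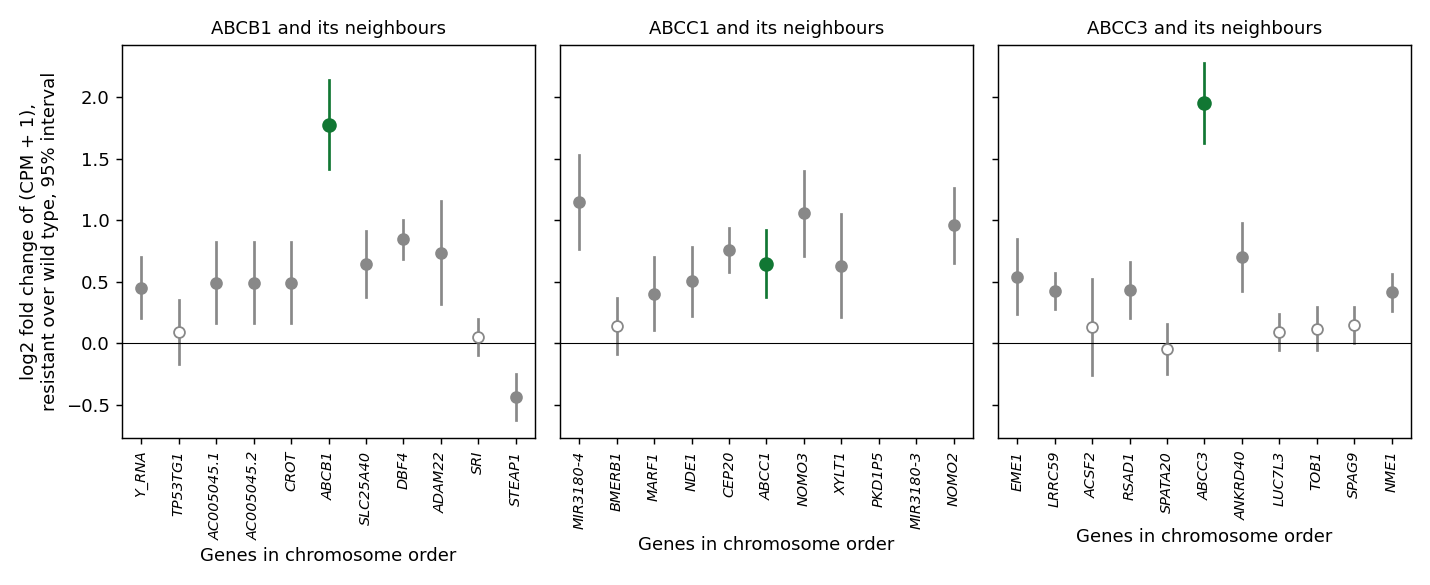
Log2 fold change of (CPM + 1), resistant over wild type, with limma's 95% interval, for ABCB1, ABCC1 and ABCC3 (green) and the 5 nearest listed genes on each side (grey) in chromosome order; open circles did not pass, and genes with no point were under 1 CPM on average and not tested. ABCC1 lies within the range of its neighbours, while ABCB1 and ABCC3 lie above all of theirs.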

How the data were processed

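The authors deposited 1 table of CPM values, each of the 4 columns summing to 1000000; column names match the sample titles. BWA 0.5.9 and the builds mm9 and hg19 are named, with no role, per the submitters' processing notes; the sources used here do not give the annotation, counting tool, strand use or gene filter. GENCODE 29 was therefore used only for neighbours, overlaps and chromosomes (99.3% of tested identifiers matched), and promoter windows came from RefSeq by symbol (5 of 7 genes matched).

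The groups were tested with limma 3.58.1 (R 4.3.3, eBayes with a trend) on log2 values of CPM plus a pseudocount of 1, in the 12587 genes that averaged 1 CPM or more. P-values were adjusted over all of these by Benjamini-Hochberg, with a threshold of 0.05. The same fit was run on simulated data in which few genes changed, none of them at low wild type levels. In the data 55.2% of tested genes were called, and ABCB1 and ABCC3 had low wild type levels. That run therefore does not bear on the calls reported here. Reads were recovered as whole multiples of the step in each column, between 0.0472 and 0.0562 CPM. The largest distance of a value from a whole multiple was 0.00636 CPM, in resistant replicate 1. The recovered reads serve for the depths, the read counts, the floor of 3 reads and the ratios of summed reads with exact 95% intervals. No count model was fitted. Those intervals and the floor of 3 reads cover counting error only. The genes and lists were chosen with earlier results of these data known. Named genes were all members in the table, list genes that passed with a log2 fold change of 1 or more in size or were among the 4 smallest adjusted p of a list, and neighbours past the threshold; TAP1, ABCD4, ABCE1, GSTP1, GSS, EZR, NFE2L2, KEAP1, DLK2, BMERB1, SPATA20 and the marker genes were named in addition, after their values were seen. Some list genes are not reported here. Lists were described by counts and medians over the genes present, with no set test. Present were 14 of 38 other ABC genes, 13 of 23 conjugation genes, 2 of 6 vault genes and 2 of 4 other exporters. Of the anchors 6 of 7 were present, and of the regulators 19 of 23. The alternatives were other pseudocounts, filters, scalings and variance models, a replicate block and leaving out each sample.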

Additional observations from a re-analysis of the deposited data

How the results depend on the processing

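Of the 7 genes, 3 were called higher under all 14 alternatives except at a mean of at least 5 CPM, where ABCB1 was not tested and 2 remained; ABCB1, ABCC1 and ABCC3 kept their calls wherever they were tested, ABCC1 with adjusted p up to 0.0376. The count of members called lower, 0, became 1 under trimmed-mean scaling, 1 under median-ratio scaling and 2 under quantile normalization, and lay between 0 and 1 with a sample left out. These scalings moved the median log2 fold change of all tested genes from 0.09 to 0.01 in each case. MVP and ABCC10 did not pass in any alternative, and the sign of their difference changed with the scaling. Over all genes, leaving out a sample gave 2556 to 4316 higher and 1636 to 2787 lower calls, with 2556 and 1729 without resistant replicate 1, 2643 and 1636 without resistant replicate 2, 4316 and 2474 without wild type replicate 1 and 3964 and 2787 without wild type replicate 2; the cause was not tested. The replicate block gave 4320 higher and 2778 lower calls and changed no call among the 7 genes. Same-numbered samples deviated with a correlation of -0.08 across 12587 genes, which shows no shared deviation. Whether they were handled together cannot be told from that value. Depth limits ABCB1 most, at 4 reads over both wild type samples.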

Other observations

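MSN and ATP7A, the tested list genes that lie on the X chromosome, were both lower in resistant cells. Over the whole X chromosome 204 of 375 tested genes (54.4%) were called lower and 49 higher, with a median log2 fold change of -0.37, the lowest of the 23 chromosomes compared. Chromosomes 8 and 21 followed with medians of -0.27 and -0.26, and chromosomes 9 and 18 had the highest, 0.34 and 0.33. This grouping was noticed after the values were seen and was not tested.

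By distance between centred log2(CPM + 1) values over the 4 samples, the genes most like ABCC3 were DNLZ (18.97 and 23.13 CPM against 76.74 and 86.91 CPM in the resistant samples), RSAD2 and NELFB, at distances of 0.07, 0.08 and 0.13. RSAD2 read 0 and 0.11 CPM in wild type and entered the test only through its level in resistant cells, 3.02 and 3.2 CPM. The genes most like MVP were ANAPC10, with AC098588.2 holding the same values, and PAAF1. With 2 samples a group, such likeness rests mainly on the size of the difference.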
